A study of Mus musculus with 8 samples.

Results

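Genes for the structure and assembly of the sarcomere, other than the myosins and the troponins, were followed in RNA-seq of the embryonic outflow tract (OFT). A list of 36 genes was looked up by symbol, and 35 were among the 14608 genes of the table. The other, *Xirp2*, was not analysed here. The members cover the thin filament, titin and myosin-binding protein C, the Z-disc, the M-band, the intercalated disc and membrane attachments, and the chaperones and ubiquitin ligases of the sarcomere. The OFT, the vessel that leaves the embryonic ventricles, was taken from mouse embryos at E11.5 (embryonic day 11.5), and poly(A) RNA was sequenced in 8 libraries. Of these, 4 are labelled Control, with no alleles stated, and 4 are labelled Mib1V943F/+ Gata6STOP/+. The second genotype joins a missense allele of the ubiquitin ligase gene *Mib1* to a null allele of the transcription factor gene *Gata6*, both heterozygous and in all cells of the embryo. Each library is a pool of OFTs, made of 3 individuals by the design text and of 4 pairs of OFT by the study's methods. The methods name 3 pools per genotype, whereas the labels give 4 samples per genotype, and the labels were followed here. The p-values measure the spread between these pools.

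A sarcomere is the contractile unit of striated muscle. Actin thin filaments are anchored by α-actinin in the Z-discs at its ends, myosin thick filaments are cross-linked in the M-band at its middle, and titin spans from one to the other. In the OFT, the myocardial sleeve is the tissue that builds sarcomeres, while the cushions inside it and the smooth muscle of the arterial pole use mainly the non-muscle or smooth muscle forms of the same proteins.

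The level of *Gata6* RNA did not separate the labels. It lay between 236 and 279 CPM (read counts scaled to a common library size by the TMM method) in the libraries labelled control and between 213 and 284 CPM in those labelled mutant, a log2 fold change of -0.08 (SE 0.10, adjusted p = 0.752 in limma). *Mib1*, whose allele changes the protein, was at 122 ± 15.6 and 128 ± 6.62 CPM (SD, n = 4 each; adjusted p = 0.746 in limma). The directions below therefore rest on the labels, and the libraries are called control-labelled and mutant-labelled. The reads counted on listed genes ranged from 10669420 (control-labelled replicate 2) to 30469165. Markers of cardiomyocytes outside the sarcomere were present (29 of 30 listed genes), whereas the defining genes of skeletal muscle, among them *Myod1*, *Myog*, *Myf5* and *Pax7*, were not listed in the table.

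Almost all sarcomere genes had a lower mean level under the mutant label. Genes measured in the same 8 libraries are not independent observations. The members were also chosen with earlier results of these data known, so counts over them describe the list and test nothing. The log2 fold change was below 0 in 34 of the 35 genes, as it was in 49.6% of all genes (50.4% were above 0), and *Ankrd1* was the exception. The median over the 35 genes was -0.28, against 0.0011 over all 14608 genes. Together the 35 genes took 2.12% ± 0.147 of the CPM under the control label and 1.79% ± 0.106 under the mutant label (SD, n = 4 each). Their levels summed to 23680, 21298, 20681 and 19876 CPM over the replicates under the control label and to 17711, 16928, 17098 and 19230.4 CPM under the mutant label. The sums of the groups did not overlap, with mutant-labelled replicate 4 the closest to the controls. In bulk tissue, fewer cardiomyocytes and less sarcomere RNA per cardiomyocyte cannot be told apart.

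No single gene passed the main test. In limma on log2(CPM + 0.5), with Benjamini-Hochberg adjustment over all genes, 0 of the 35 members and 0.0% of all genes had an adjusted p under 0.05, and the smallest adjusted p of the whole table was 0.124. At an unadjusted p under 0.05, 23 members were lower and 0 were higher. Over all genes 6.62% were lower and 5.45% higher at that p (967 and 796 genes). Without the TMM scaling the split over all genes turned to 740 lower and 1161 higher, and the members stayed at 23 and 0. In 17 members every mutant-labelled library lay below every control-labelled one, which held for 3.9% of all genes. The opposite order, seen in 0 members, held for 3.2%. A complete separation of 4 against 4 libraries has an exact permutation p of 0.0286 (two-sided), the smallest the design allows. Dividing the CPM values by the value of 1 read gave back read numbers, and on these the likelihood ratio test of edgeR called 8 members, each lower, beside 0.554% of all genes called lower. DESeq2 called the same 8 and 7 more, beside 1.11% of the 13188 genes it tested called lower and 0.349% higher, and the quasi-likelihood test of edgeR called 0 members and 0.0% of all genes. Another check of the read numbers passed in 3 of the 8 libraries, and these counts are given as alternatives. The 8 of the likelihood ratio test were *Lrrc10*, *Tcap*, *Mybpc3*, *Fhod3*, *Mypn*, *Actn2*, *Myoz2* and *Hspb7*. DESeq2 added *Csrp3*, *Actc1*, *Flnc*, *Unc45b*, *Synpo2l*, *Xirp1* and *Cryab*, with adjusted p-values from 0.00238 (*Csrp3*) to 0.0482 (*Cryab*).

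The calls of the likelihood ratio test depended on which libraries were in the fit. With all libraries it called 107 of all genes, in either direction. Without control-labelled replicate 3 *Lrrc10* was the 1 member called, among 24 of all genes. Leaving out control-labelled replicate 1 or 2 gave 2 members each, among 51 and 46 of all genes. Leaving out mutant-labelled replicate 1 or 3 also gave 2 members each, among 149 and 37. The number of members was 5 of 89 called genes without mutant-labelled replicate 2, 11 of 136 without mutant-labelled replicate 4 and 12 of 217 without control-labelled replicate 4. *Lrrc10* was among those called in every one of these fits, and 32 of the 35 members kept a log2 fold change below 0 in limma whichever library was left out. The share of all genes that kept their direction in this way was not counted.

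**Figure D1:**
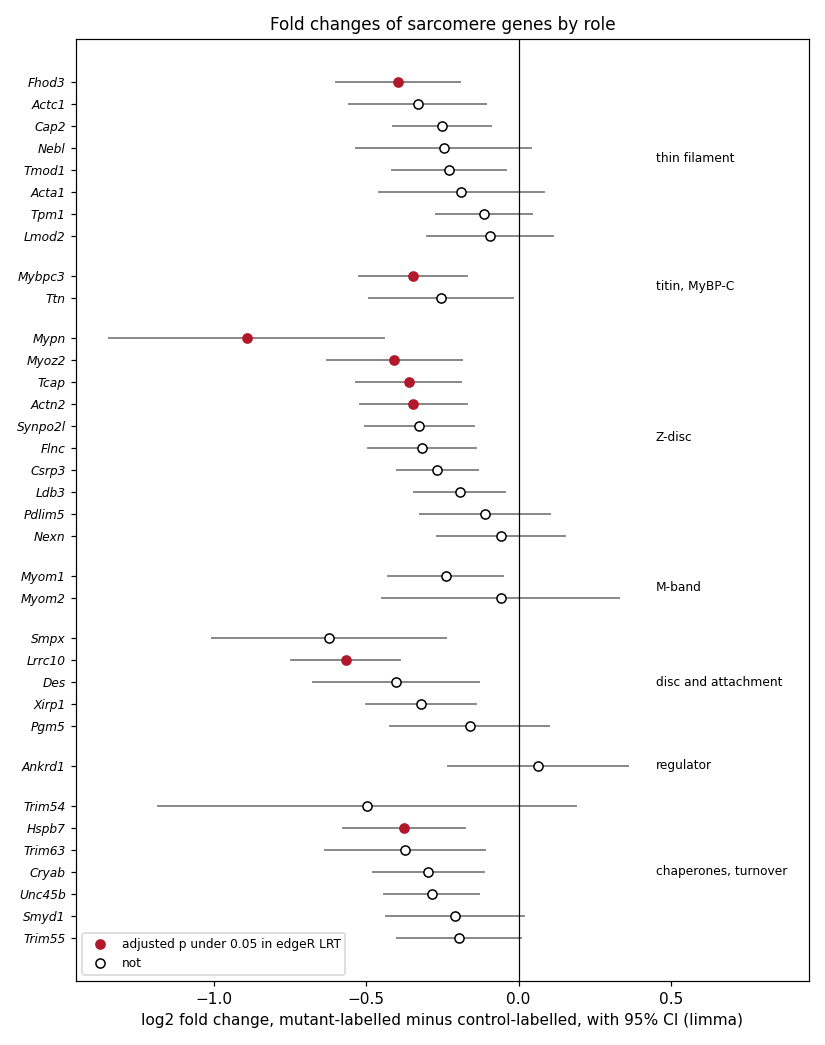
Log2 fold change of each of the 35 sarcomere genes on the horizontal axis (mutant-labelled minus control-labelled, limma on log2(CPM + 0.5)), with the 95% confidence interval as a bar, arranged by role on the vertical axis. Filled points mark the 8 genes called by the likelihood ratio test of edgeR. All points but that of *Ankrd1* lie left of 0, and *Mypn*, at -0.89, lies farthest from it.

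Promoters are shown for 4 members picked as examples, to place the letters read by muscle regulators beside the genes. In *Ankrd1* the log2 fold change was above 0, but its 95% confidence interval (-0.23 to 0.36) included 0. The interval of *Nexn*, a member below 0, did so too (-0.27 to 0.15). The 4 promoters therefore do not compare lower genes with unchanged ones. RefSeq sequences on GRCm38.p6, from 250 bases before to 50 bases after a transcription start, were matched for 28 of the 35 members (36 promoters). Capitals mark matches on either strand to 4 motifs: the GATA motif (GATA preceded by A or T and followed by A or G), the MCAT element of TEAD factors (CATTCC), the CArG box of SRF and the MEF2 site. No match of one motif overlapped a match of another in these 4. *Actc1* (chr2:114052826-114053125, minus strand) holds a CArG box 47 bases before the start. *Lrrc10* (chr10:117045091-117045390, plus strand) holds GATA motifs 173 and 73 bases before it. In *Mybpc3* (chr2:91117894-91118193, plus strand) there are GATA motifs 131 and 61 bases and a MEF2 site 90 bases before it. *Ankrd1* (chr19:36119795-36120094, minus strand), the member with a fold change above 0, has a GATA motif 47 bases and MCAT elements 210 and 123 bases before its start. MCAT elements are not particular to it. They were found in 11 of the 28 member genes, among them *Hspb7* and *Mypn*, which were called lower.
Actc1: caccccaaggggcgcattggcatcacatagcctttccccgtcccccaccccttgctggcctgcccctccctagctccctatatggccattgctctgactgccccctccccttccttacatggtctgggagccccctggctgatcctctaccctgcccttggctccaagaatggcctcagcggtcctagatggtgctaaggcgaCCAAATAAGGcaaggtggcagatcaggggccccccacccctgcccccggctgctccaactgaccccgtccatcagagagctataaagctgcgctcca
Lrrc10: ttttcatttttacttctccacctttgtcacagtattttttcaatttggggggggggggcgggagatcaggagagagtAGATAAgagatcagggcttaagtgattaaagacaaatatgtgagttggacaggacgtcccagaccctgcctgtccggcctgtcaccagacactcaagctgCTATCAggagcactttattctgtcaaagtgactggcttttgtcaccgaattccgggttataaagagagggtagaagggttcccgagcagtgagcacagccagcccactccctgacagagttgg
Mybpc3: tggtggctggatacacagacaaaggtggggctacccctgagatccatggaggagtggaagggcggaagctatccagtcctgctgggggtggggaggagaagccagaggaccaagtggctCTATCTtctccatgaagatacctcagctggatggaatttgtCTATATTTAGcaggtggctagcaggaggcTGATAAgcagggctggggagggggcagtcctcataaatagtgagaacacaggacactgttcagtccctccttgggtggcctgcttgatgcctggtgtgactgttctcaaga
Ankrd1: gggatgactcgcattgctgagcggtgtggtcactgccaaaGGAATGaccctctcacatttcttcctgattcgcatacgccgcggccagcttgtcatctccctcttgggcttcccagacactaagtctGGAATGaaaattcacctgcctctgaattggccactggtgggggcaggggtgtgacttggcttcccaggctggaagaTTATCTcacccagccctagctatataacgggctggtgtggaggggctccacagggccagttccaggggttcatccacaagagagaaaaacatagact
A GATA motif was found in 17 of the 36 member promoters (47.2%), against 29.8% of all 32851 promoters in the table. An MCAT element was found in 12 (33.3%, against 14.7%), a CArG box in 6 (16.7%, against 1.63%) and a MEF2 site in 5 (13.9%, against 3.19%). These are matches of letters, some of them in alternative promoters of 1 gene, and binding was not measured.

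Among the 8 genes of the thin filament, all were lower, 4 at an unadjusted p under 0.05, beside 6.62% of all genes. *Actc1*, cardiac α-actin, was the most abundant member. Replicates 1 to 4, in this order here and below, measured 6992, 6341, 5960.4 and 5683 CPM under the control label and 5234, 4479, 4745 and 5385 CPM under the mutant label. The groups did not overlap, and the highest mutant-labelled library lay just below the lowest control. The log2 fold change was -0.33 (SE 0.10, adjusted p = 0.287 in limma, 0.0647 by likelihood ratio and 0.0166 in DESeq2). *Acta1*, the α-actin of skeletal muscle that the embryonic heart also makes, was between 313 and 397 CPM under the control label and between 249 and 365 CPM under the mutant label, with a log2 fold change of -0.19 (-0.08 without mutant-labelled replicate 2). Its level was between 5.51% and 6.26% of that of *Actc1* in the control-labelled libraries and between 5.57% and 6.93% in the mutant-labelled ones. Actin genes are close in sequence, so reads may have been split between them.

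*Fhod3*, a formin that assembles thin filaments, measured 136, 120.2, 116 and 106 CPM under the control label and 86.5, 79.1, 101 and 96.4 CPM under the mutant label. The groups were narrowly apart. It fell in the likelihood ratio test (log2 fold change -0.40 and adjusted p = 0.214 in limma, adjusted p = 0.0249 in the likelihood ratio test). *Fhod3* lies on chromosome 18, as do *Gata6* and *Mib1*, at a distance of 13.6 Mb from *Gata6*. *Cap2*, a cyclase-associated protein that recycles actin, was at 206, 179, 182 and 174 CPM against 159, 149, 145 and 169 CPM, in the same order of replicates. Its groups were apart, with a log2 fold change of -0.25, but it missed the threshold by limma (adjusted p = 0.27) and by likelihood ratio (adjusted p = 0.154). *Tmod1*, which caps the pointed end of the filament, was at 276, 258, 251 and 261 CPM against 231, 187, 228 and 252 CPM (log2 fold change -0.23). Mutant-labelled replicate 4 lay inside the control range, and without replicate 2, the lowest, the log2 fold change was -0.14. The smallest differences in this group were those of *Tpm1*, the tropomyosin that winds along actin (log2 fold change -0.11, 95% confidence interval -0.27 to 0.04), and of *Lmod2*, which lengthens thin filaments (-0.09, 95% confidence interval -0.30 to 0.11). *Tpm1* ranged from 1868 to 1995 and from 1714 to 1898 CPM, and *Lmod2* from 60.1 to 74.8 and from 54.9 to 72.6 CPM, control-labelled first. *Nebl*, which ties thin filaments to the Z-disc, had a log2 fold change of -0.25 but a wide spread, with control-labelled replicate 1 at 525 CPM and the other controls between 349.8 and 415 CPM. The mutant-labelled libraries lay between 292 and 412 CPM, and without that control the log2 fold change of *Nebl* was -0.12.

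Titin and myosin-binding protein C were both lower, without overlap between the groups. *Mybpc3*, cardiac myosin-binding protein C, a regulator of the cross-bridges, measured 1720.3, 1674, 1715 and 1441 CPM under the control label and 1214, 1261, 1291 and 1381 CPM under the mutant label. No mutant-labelled library reached the lowest control, replicate 4, which stood apart from the other controls. It fell in the likelihood ratio test (adjusted p = 0.0228), with a log2 fold change of -0.35 (SE 0.08) and an adjusted p of 0.214 in limma. *Ttn*, titin, the spring and ruler of the sarcomere, was at 3082, 2236, 2326 and 2302 CPM against 1901, 2155, 2024 and 2197 CPM, in the same order of replicates. The groups were apart by little, and control-labelled replicate 1 was far above all other libraries. The log2 fold change of *Ttn* was -0.25 (SE 0.11, adjusted p = 0.398 in limma), and without that library it was -0.15.

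The Z-disc, the largest group with 10 members, held the most called genes. All 10 were lower, 8 of them at an unadjusted p under 0.05 and 7 without overlap, beside 6.62% and 3.9% of all genes. The likelihood ratio test called 4 of them, beside 0.554% of all genes called lower. Of the 2 genes for titin and myosin-binding protein C it called 1. *Actn2*, the α-actinin that cross-links thin filaments, measured 1152, 1182, 1079 and 1029.8 CPM under the control label and 859, 799.5, 862 and 982 CPM under the mutant label. Mutant-labelled replicate 4 was the highest of its group and still below every control. *Actn2* fell in the likelihood ratio test (log2 fold change -0.34, SE 0.08, adjusted p = 0.214 in limma and 0.0306 by likelihood ratio). *Tcap*, telethonin, which caps the ends of titin molecules, was at 35.8, 41.2, 39.1 and 35.6 CPM against 31.5, 27.3, 29.0 and 29.9 CPM. Here the highest mutant-labelled library, replicate 1, lay below the lowest control. Its log2 fold change was -0.36 (SE 0.08, adjusted p = 0.202 in limma and 0.02 by likelihood ratio).

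*Myoz2*, calsarcin-1, which holds calcineurin at the Z-disc, measured 39.7, 32.9, 38.2 and 36.8 CPM under the control label and 24.0, 30.5, 25.3 and 31.5 CPM under the mutant label. The groups were narrowly apart, and the log2 fold change was -0.41 (adjusted p = 0.228 in limma and 0.0396 by likelihood ratio). *Mypn*, myopalladin, which links actin and α-actinin to nebulin proteins, was a gene of low level with the largest change of all members. It measured 8.43, 5.69, 7.18 and 5.20 CPM under the control label and 3.13, 2.47, 2.89 and 5.10 CPM under the mutant label. In replicate 4 of the 2 groups the values nearly met. The log2 fold change of *Mypn* was -0.89 (SE 0.21, 95% confidence interval -1.34 to -0.44), with an adjusted p of 0.214 in limma and 0.0298 by likelihood ratio. *Csrp3*, muscle LIM protein, had the smallest spread of the controls relative to their mean, at 409, 420.1, 416 and 399 CPM against 349.7, 349, 316 and 352 CPM. The gap between its groups was wider than the range of the controls. The log2 fold change was -0.27 (SE 0.06, adjusted p = 0.207 in limma, 0.0574 by likelihood ratio and 0.00238 in DESeq2).

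The other Z-disc genes showed smaller or less even differences. *Synpo2l*, a partner of α-actinin, measured 331, 291, 282 and 274 CPM under the control label and 229.7, 222, 220.4 and 269 CPM under the mutant label (log2 fold change -0.33). *Flnc*, the muscle filamin, was at 704, 684, 654 and 565.2 CPM against 505, 487, 529.9 and 564.7 CPM (log2 fold change -0.32). In both genes replicate 4 was the lowest control and the highest mutant-labelled library, and in *Flnc* these nearly met. *Ldb3*, also called Cypher or ZASP, was at 414, 349.6, 372 and 366 CPM against 315, 324, 322 and 350.4 CPM, with an overlap of under 1 CPM (log2 fold change -0.19, adjusted p = 0.333 in limma). *Pdlim5* and *Nexn* had log2 fold changes of -0.11 (95% confidence interval -0.32 to 0.10) and -0.06 (95% confidence interval -0.27 to 0.15). *Pdlim5* ranged from 235 to 311 and from 215 to 272 CPM, and *Nexn* from 307 to 407 and from 321 to 385 CPM, control-labelled first, with overlap in both.

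**Figure D2:**
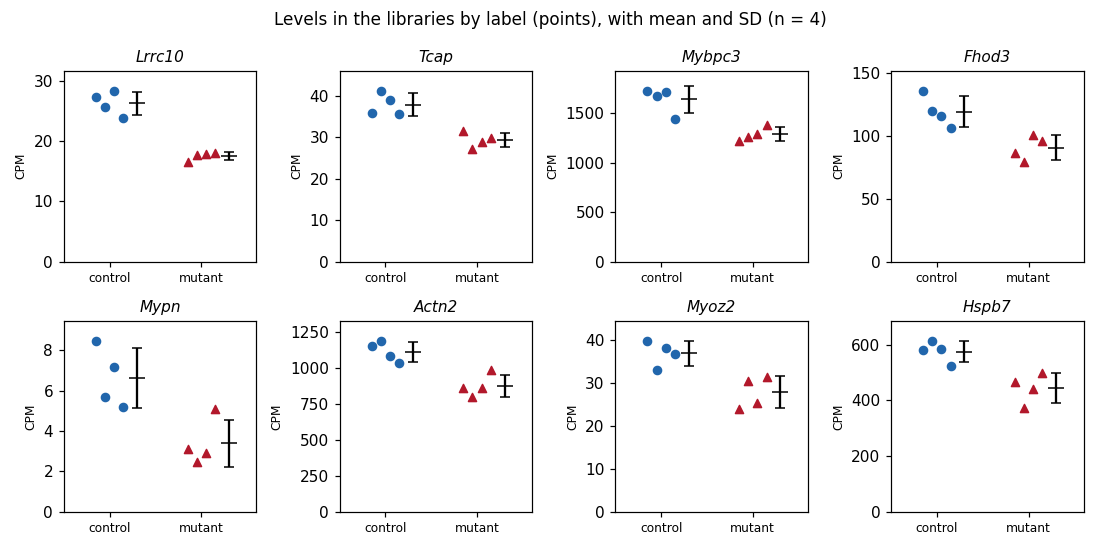
Level in CPM (vertical axis, from 0) of the 8 genes called by the likelihood ratio test in the 4 control-labelled (circles) and 4 mutant-labelled (triangles) libraries, with the mean and SD beside the points. In each gene the mutant-labelled libraries lie below every control, with the closest approach in *Mypn* (5.10 against 5.20 CPM).

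Of the M-band pair, *Myom1*, the main myomesin, which cross-links thick filaments, measured 776, 614.9, 637 and 619 CPM under the control label and 533, 551, 537 and 615.0 CPM under the mutant label. Control-labelled replicate 1 stood above the others, and the groups met at 615 CPM (log2 fold change -0.24, adjusted p = 0.335 in limma). *Myom2*, the M-protein of more mature muscle, was low, at 4.03 to 4.96 CPM in the control-labelled libraries, and had a log2 fold change of -0.06 (95% confidence interval -0.45 to 0.33). Its mutant-labelled libraries included the lowest value of all, 2.89 CPM, and the highest, 5.62 CPM.

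*Lrrc10*, a cardiac leucine-rich repeat protein that binds actin and α-actinin, had the smallest p of the members in limma, both edgeR tests and DESeq2 with all 8 libraries. It measured 27.3, 25.7, 28.3 and 23.9 CPM under the control label and 16.6, 17.7, 17.8 and 18.1 CPM under the mutant label. The mutant-labelled libraries lay close together and below the lowest control. The log2 fold change was -0.57 (SE 0.08, 95% confidence interval -0.75 to -0.39), with an adjusted p of 0.124 in limma and 2.8e-05 by likelihood ratio. *Smpx*, a small protein of the costameres, had the second largest change, at 147, 109, 116 and 102 CPM against 90.5, 58.6, 60.5 and 105 CPM. Mutant-labelled replicates 2 and 3 were low, while replicate 4 lay inside the control range, and the gene passed in none of limma, the likelihood ratio test and DESeq2 (log2 fold change -0.62, SE 0.18, adjusted p = 0.258 in limma and 0.0906 by likelihood ratio).

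*Des*, desmin, is the intermediate filament between Z-discs. It measured 734, 736, 641 and 591 CPM under the control label and 583, 408, 463 and 609.7 CPM under the mutant label. Only mutant-labelled replicate 4 exceeded the lowest control, and the log2 fold change was -0.40 (SE 0.12, adjusted p = 0.284 in limma). *Xirp1*, an actin-binding protein of the intercalated disc, was at 236, 239.5, 209 and 197.6 CPM against 172, 164, 171 and 197.7 CPM. The groups met in their replicates 4, and the log2 fold change was -0.32. *Pgm5*, an enzyme relative that serves at adherens junctions, ranged from 67.8 to 88.7 and from 52.9 to 76.9 CPM (log2 fold change -0.16, 95% confidence interval -0.42 to 0.10). Without mutant-labelled replicate 2 its log2 fold change was -0.035.

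**Figure D3:**
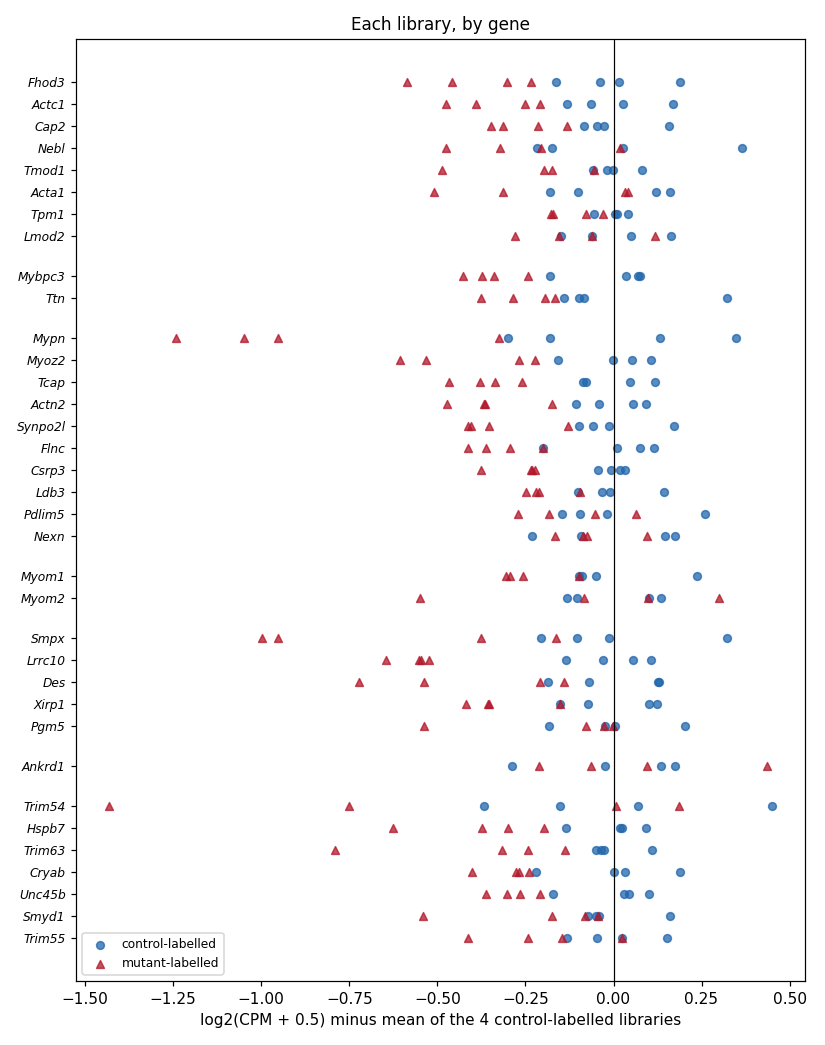
Each library's log2(CPM + 0.5) minus the mean of the 4 control-labelled libraries (horizontal axis) for the 35 genes, arranged by role (vertical axis), with circles for control-labelled and triangles for mutant-labelled libraries. In 17 genes all triangles lie left of all circles, and the widest scatter of triangles is in *Trim54*.

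*Ankrd1*, a stress-responsive ankyrin repeat protein of the I-band and nucleus, was the member with a fold change above 0. It measured 706, 615, 512 and 686 CPM under the control label and 539, 846, 598 and 668 CPM under the mutant label. Mutant-labelled replicate 2, in which 20 members were at the lowest level of the group, had the highest *Ankrd1* of all 8 libraries. The groups overlapped widely, with a log2 fold change of 0.06 (SE 0.14, 95% confidence interval -0.23 to 0.36). Relative to *Ttn* in the same library, it was at 22.9%, 27.5%, 22.0% and 29.8% in the control-labelled libraries and at 28.4%, 39.2%, 29.5% and 30.4% in the mutant-labelled ones, a ratio chosen after its values were seen.

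The chaperones and turnover factors were all lower, 4 of 7 at an unadjusted p under 0.05 and without overlap. Over all genes these shares were 6.62% and 3.9%. *Hspb7*, a small heat shock protein of cardiac thin filaments, measured 581, 612, 583 and 522 CPM under the control label and 466, 371, 442 and 500.1 CPM under the mutant label. It fell in the likelihood ratio test, and mutant-labelled replicate 2 was its lowest library (log2 fold change -0.37, SE 0.09, adjusted p = 0.228 in limma and 0.0437 by likelihood ratio). *Unc45b*, the chaperone that folds the myosin head, was at 291, 279.8, 277 and 241 CPM against 235, 211, 226 and 220.2 CPM (log2 fold change -0.28). *Cryab*, the small heat shock protein that guards desmin, was at 199, 221, 194 and 166 CPM against 161, 147, 160.1 and 164 CPM (log2 fold change -0.30). Both were without overlap. Their adjusted p-values were 0.0696 and 0.101 in the likelihood ratio test and 0.0187 and 0.0482 in DESeq2. *Smyd1*, a methyltransferase needed to assemble thick filaments, ranged from 386 to 453 CPM and from 279 to 393 CPM, with overlap (log2 fold change -0.21, 95% confidence interval -0.44 to 0.02). Of the ubiquitin ligases of the MuRF family, *Trim63* was at 56.2, 56.7, 62.8 and 57.1 CPM against 46.6, 33.4, 49.1 and 52.8 CPM, without overlap (log2 fold change -0.37, adjusted p = 0.301 in limma). *Trim55* ranged from 181 to 221 and from 149 to 202 CPM, with a log2 fold change of -0.19. *Trim54* was between 3.16 and 5.94 CPM and between 1.25 and 4.87 CPM and had the widest interval of the members (log2 fold change -0.50, 95% confidence interval -1.18 to 0.19). Mutant-labelled replicate 2 was the lowest library in these 4 genes. Without it the log2 fold change was -0.10 in *Smyd1*, -0.23 in *Trim63*, -0.12 in *Trim55* and -0.185 in *Trim54*, and without mutant-labelled replicate 4 it was -0.72 in *Trim54*.

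Per length of merged exons, the levels spanned a wide range. In the control-labelled libraries the mean level was 3859 CPM per kb for *Actc1*, followed by *Mybpc3* (393), *Tpm1* (299), *Actn2* (293), *Acta1* (232), *Ankrd1* (218) and *Hspb7* (208). At the low end were *Trim54* (3.01), *Mypn* (1.14) and *Myom2* (0.507 CPM per kb). *Ttn*, with 116825 bp of merged exons, stood at 21.3 CPM per kb although it was the second in CPM. Merged exons overstate the length of a transcript where exons are alternative, as in *Ttn*, and neighbours such as *Tpm1* and *Actn2* differed by less than their spread.

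Many members shared their highest or lowest library within a group. Control-labelled replicate 1 was the highest of its group in 23 of the 35 members, and control-labelled replicate 4 the lowest in 21. Among the mutant-labelled libraries, replicate 4 was the highest in 28 members and the lowest in 0, and replicate 2 was the lowest in 20. Mutant-labelled replicates 1, 2 and 3 lay below the lowest control in 28, 30 and 31 members and replicate 4 in 18. None of these counts was made over all genes, so they are not read as a trait of the members. The median deviation of the members from their own means was 0.26, 0.15, 0.10 and 0.05 (log2) over the replicates under the control label and -0.11, -0.26, -0.19 and 0.00046 under the mutant label.

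Genes of the same pathway were set beside the members. For reference, 6.62% of all genes were lower and 5.45% higher at an unadjusted p under 0.05. The likelihood ratio test called 0.554% of all genes lower. Of 17 listed genes of the thick filament and the troponins, 16 were measured, all lower, with a median log2 fold change of -0.34. At an unadjusted p under 0.05, 14 of the 16 were lower, and 9 were called by the likelihood ratio test. The smallest p-values there were those of the troponin gene *Tnni2*, the myosin gene *Myh7b* and the myosin light chain gene *Myl2* (log2 fold changes -0.69, -0.46 and -0.56). Of 43 measured genes in a wider list of Z-disc, M-band, costamere and chaperone genes, 31 were lower and 12 higher (median -0.14), with 17 lower and 1 higher at an unadjusted p under 0.05. The 4 called there by the likelihood ratio test, all lower, included *Nrap*, a scaffold of assembling myofibrils (log2 fold change -0.48, adjusted p = 0.00323 in the likelihood ratio test), and the small heat shock protein gene *Hspb2* (-0.43, adjusted p = 0.0145). Cardiomyocyte genes outside the sarcomere had a median of -0.33 over 29 genes, of which 26 were lower and 19 lower at an unadjusted p under 0.05. No difference between the lists was tested.

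The genes listed as non-muscle counterparts of the members were split in direction. The list is not free of muscle genes. It shares *Lmod1* with the smooth muscle list below and *Hspb1* with the wider Z-disc list above. Of 26 genes for cytoplasmic actins, α-actinins, filamins, tropomyosins and the like, 12 were lower and 14 higher. Their median log2 fold change was 0.01. With an unadjusted p under 0.05 in limma there were 4 lower and 4 higher, beside 6.62% and 5.45% of all genes. *Hspb1*, *Pdlim4* and *Pgm1* had the smallest p-values (log2 fold changes -0.38, 0.58 and -0.22), and 0 of the 26 were called by the likelihood ratio test. Within a library, the ratio of *Actc1* to *Actb* was between 305% and 398% in the control-labelled and between 246% and 288% in the mutant-labelled libraries. The ratio of *Actn2* to *Actn1* ran from 261% to 288% and from 212% to 230.5%, and that of *Flnc* to *Flna* from 44.1% to 51.3% and from 33.2% to 40.6%, in the same order. For *Tpm1* and *Tpm4* the ratios were 366% to 419% and 261% to 335%. In these 4 pairs and in *Mypn* and *Palld* the ratios of the groups did not overlap, while in *Des* and *Vim* and in *Cap2* and *Cap1* they did. The 7 pairs were chosen after values were seen.

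**Figure D4:**
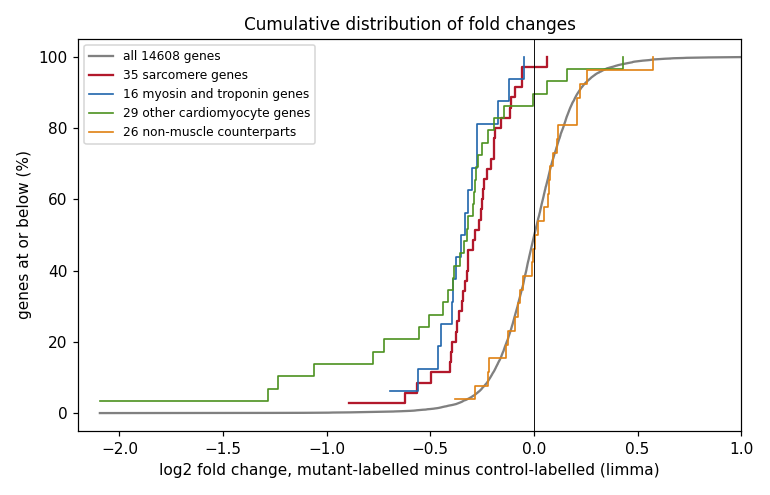
Share of genes at or below a log2 fold change (vertical axis, %) against that fold change (horizontal axis, mutant-labelled minus control-labelled, limma) for all 14608 genes, the 35 sarcomere genes and 3 other lists. The curves of the sarcomere genes, the 16 myosin and troponin genes and the 29 other cardiomyocyte genes lie left of that of all genes, with medians of -0.28, -0.34 and -0.33. The median of the 26 non-muscle counterparts is 0.01.

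Transcription factors of the heart were split. Of 22 measured, 15 were lower and 7 higher. The likelihood ratio test called 3 lower and 1 higher, beside 0.554% and 0.178% of all genes. A link between these factors and the members was not tested. *Hopx* and *Irx4* were called lower and *Isl1*, a factor of cardiac progenitors, was called higher in the likelihood ratio test (log2 fold changes -0.68, -0.76 and 0.64). *Nkx2-5* was the other factor called, named here after its values were seen. It lay between 92.5 and 130.3 CPM in the control-labelled and between 65.2 and 83.0 CPM in the mutant-labelled libraries (log2 fold change -0.45, adjusted p = 0.228 in limma and 0.0247 by likelihood ratio).

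Markers of the other cell types of the OFT moved with the groups to different degrees. Their counts stand beside 5.45% of all genes higher and 6.62% lower at an unadjusted p under 0.05. Of 17 smooth muscle genes, 14 were higher and 3 lower, 7 and 1 of them at an unadjusted p under 0.05, with a summed level of 3299 to 3680.1 CPM in the control-labelled and 3487 to 3888 CPM in the mutant-labelled libraries. Of 17 genes of the cushion mesenchyme, 14 were higher and 1 passed an unadjusted p of 0.05, and their sums overlapped, at 8036 to 8913 against 7652 to 10106 CPM. Of 16 endocardial and endothelial genes, 10 were lower and 4 lower at that p. Erythroid genes varied widely between libraries, from 1852 to 3769.8 CPM and from 1555 to 5775 CPM, and 0 of 12 passed. At that p 1 of 9 epicardial genes and 2 of 11 macrophage genes were lower, and 2 of 11 measured genes of neural crest, glia and neurons were higher. Only 3 of 19 skeletal muscle and 3 of 10 pharyngeal epithelium genes were in the table, and 0 of them passed. The part that the makeup of the tissue has in the lower sarcomere RNA was not tested.

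**Figure D5:**
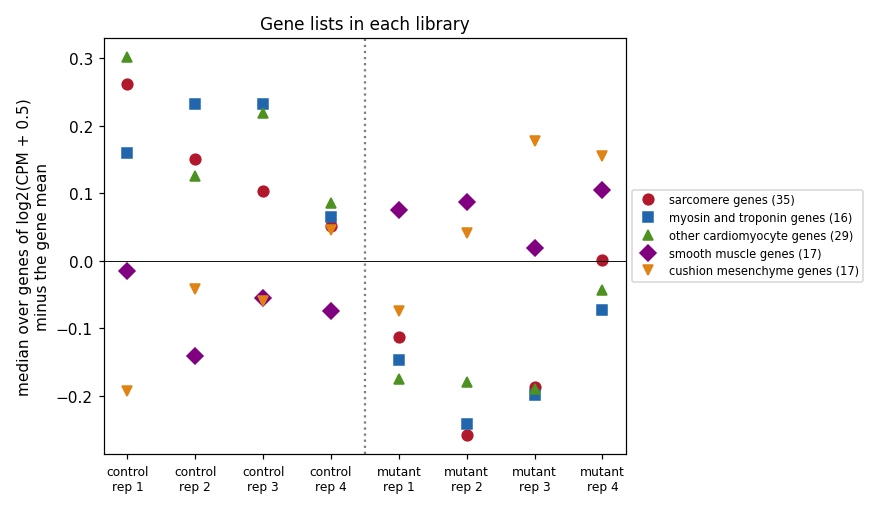
Median over the genes of a list of log2(CPM + 0.5) minus the gene's mean (vertical axis) in each of the 8 libraries (horizontal axis), for the sarcomere genes, 2 other cardiomyocyte lists, smooth muscle and cushion mesenchyme. The sarcomere genes run from 0.26 in control-labelled replicate 1 to -0.26 in mutant-labelled replicate 2, near the other cardiomyocyte lists, and the smooth muscle genes are below 0 in the 4 controls and above 0 in the 4 mutant-labelled libraries.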

How the data were processed

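RNA-seq libraries of OFT pools, 4 labelled Control and 4 labelled Mib1V943F/+ Gata6STOP/+, were grouped by their labels. The authors trimmed reads with cutadapt 1.18, estimated gene counts on a mouse transcriptome with RSEM 1.2.3 dropped genes that did not reach 1 CPM in 3 or more samples, normalised with edgeR 3.32.1, and deposited 1 table of CPM values scaled by the TMM method. RSEM shares reads among similar transcripts, so levels of actins and tropomyosins are uncertain. Coordinates and exon lengths are from GENCODE vM21 (GRCm38).

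The members and gene lists were chosen with earlier results of these data known. The main test was limma 3.58.1 (R 4.3.3), fitted to log2(CPM + 0.5) with a trended prior variance, Benjamini-Hochberg adjusted over 14608 genes, with a threshold of 0.05. Fold changes are on that scale, which understates those of low genes. Single genes were also compared by an exact permutation test (70 relabellings, two-sided).

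Each CPM value was a whole multiple of the value of 1 read, within 0.05 reads, for 100% of values in each of the 8 columns. Depths were 10669420 to 30469165 reads on listed genes, and 1 read was worth 0.0325 to 0.0948 CPM. Another check, which takes a column's smallest value as 1 read, passed in 3 of the 8 columns, and the count tests (edgeR 4.0.16 likelihood ratio and quasi-likelihood, DESeq2 1.42.0) stand as alternatives only.

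Members whose groups did not overlap, that passed the likelihood ratio test or that had an unadjusted limma p under 0.05 are given in every library, as is *Ankrd1*, chosen after its values were seen. The others are given by range. Also named are the 3 genes with the smallest p from each comparison list. The result of 1 gene that this rule names is not reported here. Alternatives were other filters, pseudocounts and scalings, a GC correction, each library left out and a replicate block. Scripts were tested on simulated data.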

Additional observations from a re-analysis of the deposited data

Results flagged for a closer look

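In 7 of the 74 groups of 4 libraries examined, 1 library stood far from the other 3 by Dixon's test, where chance flags about 1 in 20. Control-labelled replicate 1 was the high library in *Ttn* (3082 CPM, the others 2236 to 2326), *Myom1* (775.8, the others 614.9 to 636.5) and *Smyd1* (453.3, the others 385.6 to 394.2). Control-labelled replicate 4 was the low one in *Mybpc3* (1441 CPM, the others 1674 to 1720.3), and control-labelled replicate 3 the high one in *Trim63* (62.81, the others 56.2 to 57.08). Among the mutant-labelled libraries, replicate 3 was low in *Csrp3* (316.5 CPM, the others 349 to 352.4) and replicate 2 in *Pgm5* (52.87, the others 72.98 to 76.92).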

How the results depend on the processing

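The number of members with an adjusted p under 0.05 was 0 in limma, 8 in the likelihood ratio test (107 of all genes) and 15 in DESeq2 (192 of all genes). Leaving out 1 library, an alternative added after seeing the data, moved the 8 between 1 and 12 (24 to 217 of all genes). Replicate numbers did not pair the libraries (correlations from -0.271 to 0.0499, and 0 of 8 libraries correlated best with their own number). The replicate block in limma, planned, moved the count lower at an unadjusted p from 23 to 24 (745 of all genes, from 967). In the likelihood ratio test, where it was added after seeing the data, the block left 3 members (*Lrrc10*, *Mypn* and *Smpx*; 90 of all genes). The count at an unadjusted p was 19 to 27 with 1 library left out (671 to 1095 of all genes). The log2 fold change turned sign with 1 library left out in *Nexn* (range -0.14 to 0.00032, highest without control-labelled replicate 1), in *Ankrd1* (range -0.0603 to 0.16, below 0 without control-labelled replicate 3 or mutant-labelled replicate 2) and in *Myom2* (range -0.18 to 0.10, above 0 without mutant-labelled replicate 1), and in *Mib1* with the GC trend removed (-0.012). The causes were not tested. Of 701 single-gene alternatives, 673 kept their direction and side of the threshold, and 5 changed direction. The other 23 passed the threshold, all in the likelihood ratio test or DESeq2. As no gene passed the main test, keeping its side meant staying above an adjusted p of 0.05. The depth of control-labelled replicate 2 limits genes of low level.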
